A study of Mus musculus with 3 samples.

Results

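Collagens, laminins and integrins are the building blocks of the extracellular matrix and the receptors by which cells hold on to it. The genes described here are the 86 of 32285 measured genes whose symbols follow the naming pattern of collagen chains (Col, a number, a, a number), laminin chains (Lama, Lamb or Lamc with a number) or integrin subunits (Itga or Itgb with a further letter or number). They comprise 44 collagen genes, 11 laminin genes and 27 integrin subunit genes. The pattern also took in 4 genes that are not subunits: Itgb1bp1 and Itgb1bp2, which encode proteins that bind the tail of integrin β1, and Itgb3bp and Itgbl1. Transcripts were counted by droplet-based single-cell RNA sequencing of small intestinal organoids, epithelial cells grown as hollow bodies in a gel, from C57BL/6 mice. All mice received 2 doses of tamoxifen at 2 mg when 7 to 8 weeks old, and the organoids were taken at passage 3, day 6.

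The 3 genotypes had 1 library each. WT organoids are labelled as wild type with no engineered allele named, and came from 21 days after tamoxifen. LApc organoids (Lgr5-CreERT2;Apc fl/fl) came from 29 days after tamoxifen, and LApcL organoids, which carried Lef1 fl/fl in addition to these alleles, from 21 days. The Cre recombinase is expressed from the locus of the intestinal stem cell gene Lgr5, so that alleles are recombined in stem cells and inherited by their progeny. Apc restrains Wnt signalling, and Lef1 is a transcription factor of that pathway. Genotype, mouse, culture and, for LApc, the time after tamoxifen cannot be told apart with 1 library per genotype. No p-value was therefore computed, and the 95% intervals given below cover counting error only.

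In the intestine, the epithelium rests on a basement membrane, a thin sheet woven from a collagen IV network and a laminin network that nidogens and the proteoglycans perlecan and agrin tie together. Laminins are trimers of 1 α, 1 β and 1 γ chain, and collagen IV is a trimer of α chains whose genes lie in head-to-head pairs. Integrins are dimers of 1 α and 1 β subunit. Those with β1 mostly bind collagens and laminins, the pair α6β4 holds epithelial cells to laminin in hemidesmosomes, and those with αv bind fibronectin and latent TGF-β.

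Levels are given for 2 kinds of barcode, a barcode being the tag of 1 droplet. The first kind, termed own deep barcodes, occurred in 1 library only, held at least 10000 UMIs (unique molecular identifiers, each standing for 1 captured transcript) and had at most 20% of UMIs from mitochondrial genes. WT had 1208 such barcodes, LApc 2161 and LApcL 1931, with 48895147, 90864428 and 80504226 UMIs and medians of 38073.5, 34377 and 32584 UMIs. The second kind was found in all 3 libraries. The same 3195 barcodes recurred in each, with medians of 2176, 1483 and 1609 UMIs, and their total UMIs correlated between libraries with Pearson's r of 0.983 to 0.988 over these barcodes. The 3 libraries are thus not replicates for the shared barcodes. A level is the UMIs of a gene summed over the barcodes of a group and scaled to 1000000 UMIs (CPM). The libraries read transcript ends, and 1 UMI stands for 1 transcript whatever its length.

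The markers separated the 2 kinds of barcode. A sum over 7 epithelial markers (Epcam, Cdh1, Krt8, Krt18, Krt19, Cldn7 and Elf3) stood at 4428 CPM in WT, 7431 CPM in LApc and 8216 CPM in LApcL own deep barcodes, and at 14.5 to 60.6 CPM in shared barcodes. A sum over 6 endothelial markers (Pecam1, Cdh5, Tie1, Egfl7, Cldn5 and Esam) stood at 5.97, 32.0 and 16.8 CPM in own deep barcodes and at 4346 to 4360 CPM in shared barcodes. The shared barcodes therefore went against the organoid label. The organoids also differed in epithelial makeup. Enterocyte markers (8 genes, among them Fabp1 and Sis) summed to 21548 CPM in WT own deep barcodes, 10.8 CPM in LApc and 12.9 CPM in LApcL. Of the 1208 WT barcodes, 864 (71.5%) took over 0.5% of their UMIs from them. The targeted genes were counted at 0.961, 72.0 and 47.8 CPM for Lef1 and at 20.0, 88.5 and 95.4 CPM for Apc in WT, LApc and LApcL. These counts do not check the deletions. Lef1 was not called lower in LApcL than in LApc, the counts are per gene, and whether the counted transcript ends lie in the floxed parts is not given in the sources used here. LApc also differed from both other libraries in sex-linked genes. Xist, the transcript of the inactive X chromosome, stood at 0.920, 1281 and 0.261 CPM in WT, LApc and LApcL, and the Y-linked gene Ddx3y at 48.7, 0.0330 and 49.3 CPM. In both comparisons with LApc this difference and the genotype cannot be told apart.

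Most members were little expressed. In own deep barcodes 4 of the 86 had no UMI in any library (Col4a6, Col5a2, Col6a2 and Col8a2), and in shared barcodes 8 had none. A level of at least 10 CPM was reached by 7 members in WT, 19 in LApc and 18 in LApcL own deep barcodes. In own deep barcodes and in the shared barcodes as a whole, 38 members stayed under 2 CPM in every library. They included 12 integrin subunit genes, among them the leukocyte integrin genes Itgb2 and Itgal, and Col17a1, the hemidesmosomal collagen of skin, which had 5 to 6 UMIs per library in own deep barcodes (0.0621 to 0.123 CPM).

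**Figure D1:**
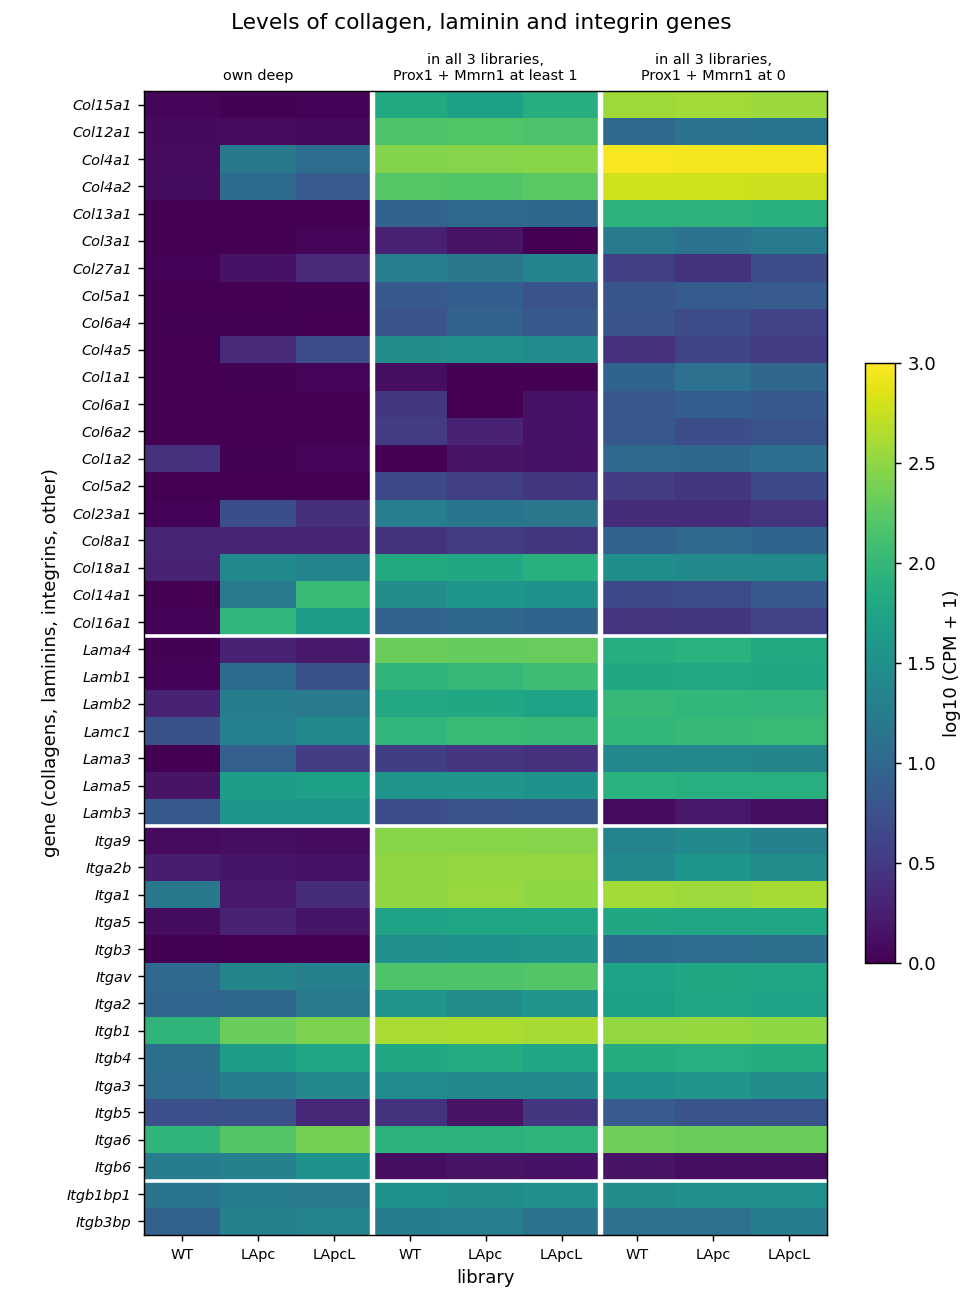
Levels of the members that reached a mean of 2 CPM in a comparison of genotypes or of shared barcode classes, as log10 of CPM + 1 (color), with 1 row per gene and 1 column per library and barcode group. In own deep barcodes collagen IV, laminin α5 and collagens XIV and XVI are near 0 in WT and present in LApc and LApcL, while the columns of the shared barcodes look alike across libraries.

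Collagen IV was counted in LApc and LApcL epithelium but hardly in WT. Col4a1 and Col4a2 encode the α1 and α2 chains, which form the collagen IV network of nearly all basement membranes. Col4a1 had 11 UMIs in WT own deep barcodes (0.225 CPM, 0.112 to 0.403), 1401 in LApc (15.4 CPM, 14.6 to 16.2) and 886 in LApcL (11.01 CPM, 10.29 to 11.75). Col4a2 had 12 UMIs in WT (0.245 CPM), 957 in LApc (10.5 CPM) and 502 in LApcL (6.24 CPM). Both were far lower in WT than in the other 2 libraries. The 11 Col4a1 UMIs of WT came from 4 barcodes, 8 of them from a single one. The log2 ratio of LApc to WT was 6.10 (5.25 to 7.10) for Col4a1 and 5.42 (4.61 to 6.38) for Col4a2. These ratios rest on the few WT counts, and that of Col4a1 was 7.77 with doublet scores removed and 5.13 at no more than 10% of mitochondrial UMIs.

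The 2 genes start back to back on chromosome 8. In GENCODE M21 models of GRCm38, Col4a1 (ENSMUSG00000031502) spans 11198423 to 11312826 on the reverse strand and Col4a2 (ENSMUSG00000031503) spans 11312805 to 11449287 on the forward strand, with 21 bases between their starts. Their RefSeq promoter windows (GRCm38.p6, 250 bases before to 50 after the start) share 78 bases, which are shown in capitals, each window being read 5′ to 3′ along its own gene. They are printed because the levels of the 2 genes differed in the same direction in each comparison described here. The window of Col4a1 is chr8:11312777-11313076 on the reverse strand and that of Col4a2 is chr8:11312555-11312854 on the forward strand. Their GC content is 74% and 73.67%.
Col4a1: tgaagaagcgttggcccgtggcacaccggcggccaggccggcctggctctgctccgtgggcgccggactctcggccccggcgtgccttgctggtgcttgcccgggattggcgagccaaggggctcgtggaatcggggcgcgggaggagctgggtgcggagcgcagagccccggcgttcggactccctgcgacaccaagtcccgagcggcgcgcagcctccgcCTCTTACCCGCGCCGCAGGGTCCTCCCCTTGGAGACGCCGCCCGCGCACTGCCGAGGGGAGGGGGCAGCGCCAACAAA
Col4a2: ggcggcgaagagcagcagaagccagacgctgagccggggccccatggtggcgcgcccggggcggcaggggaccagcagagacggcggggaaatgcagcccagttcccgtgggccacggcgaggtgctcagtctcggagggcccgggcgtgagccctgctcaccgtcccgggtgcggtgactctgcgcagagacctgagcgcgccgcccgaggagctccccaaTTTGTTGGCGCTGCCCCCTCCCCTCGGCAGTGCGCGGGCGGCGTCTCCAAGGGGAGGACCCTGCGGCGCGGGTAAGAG
The number of Col4a1 UMIs per Col4a2 UMI was 0.917 (0.366 to 2.27) in WT, where both counts were low, 1.46 (1.35 to 1.59) in LApc and 1.76 (1.58 to 1.97) in LApcL own deep barcodes. In the shared barcodes it lay between 1.51 and 1.86, although the levels of both genes were over 500 CPM in some of those groups.

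The other collagen IV pair behaved differently. Col4a5 and Col4a6, on the X chromosome, also start head to head, but their RefSeq starts lie 1343 bases apart and the promoter windows do not overlap. Col4a5 (ENSMUSG00000031274; 141475385 to 141689234, forward strand) encodes the α5 chain and Col4a6 (ENSMUSG00000031273; 141165403 to 141474076, reverse strand) the α6 chain. Col4a5 had 1 UMI in WT own deep barcodes (0.0205 CPM), 120 in LApc (1.32 CPM) and 330 in LApcL (4.10 CPM), whereas Col4a6 had 0 UMIs in all 3, which allows up to 0.0614, 0.0330 and 0.0373 CPM. The GC content of the windows, chrX:141475169-141475468 on the forward strand for Col4a5 and chrX:141474027-141474326 on the reverse strand for Col4a6, is 52.67% and 48.33%. They are printed for contrast with the overlapping pair.
Col4a5: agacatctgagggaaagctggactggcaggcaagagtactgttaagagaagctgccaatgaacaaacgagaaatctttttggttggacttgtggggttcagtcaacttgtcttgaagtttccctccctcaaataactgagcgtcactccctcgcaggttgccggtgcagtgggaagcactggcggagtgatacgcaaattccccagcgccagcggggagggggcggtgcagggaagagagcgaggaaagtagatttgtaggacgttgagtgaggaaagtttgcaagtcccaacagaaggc
Col4a6: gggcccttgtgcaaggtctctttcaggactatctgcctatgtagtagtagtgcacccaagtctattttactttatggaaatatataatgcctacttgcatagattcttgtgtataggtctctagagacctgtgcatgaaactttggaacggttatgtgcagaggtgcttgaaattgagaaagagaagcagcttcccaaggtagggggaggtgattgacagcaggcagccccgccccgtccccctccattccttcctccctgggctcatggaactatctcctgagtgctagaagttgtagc
A core of the binding motif of the TCF/LEF factors (CTTTGAA or CTTTGAT, on either strand, the 2 forms not overlapping each other at a site) was found in none of the 4 windows. Of the 86 members, 62 had a RefSeq window, and 8 of their 68 windows (11.8%) held the core, against 8.65% of all 32851 windows. The 8 were those of Col13a1, Col15a1, Col6a2, Col9a1, Col9a2, Itga1, Itga10 and Itgb1bp1.

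Col18a1 encodes collagen XVIII, a proteoglycan of basement membranes and the source of endostatin. It stood at 1.002 CPM in WT, 25.4 CPM in LApc and 21.8 CPM in LApcL own deep barcodes, a log2 ratio of LApc to WT of 4.66 (4.26 to 5.10). Its relative collagen XV, from Col15a1, had 6, 3 and 5 UMIs there (0.0330 to 0.123 CPM). Col4a3 and Col4a4, the third collagen IV pair, were low, at 0.0745 to 0.0990 CPM and 0.266 to 0.919 CPM.

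The 7 laminin chain genes with a mean of at least 2 CPM were all called higher in LApc than in WT, beside 27.1% of all genes. Of these, Lama3, Lama5, Lamb1 and Lamb2 were under 2 CPM in WT, passed the minimum only through LApc and so had to differ. Lama3 and Lamb3 encode the α3 and β3 chains, which join in the laminin that integrin α6β4 binds. In own deep barcodes Lama3 had 0 UMIs in WT, 658 in LApc (7.24 CPM) and 199 in LApcL (2.47 CPM), so that it was at least 118-fold higher in LApc than in WT. Lamb3 stood at 5.64 CPM in WT, 36.9 CPM in LApc and 37.4 CPM in LApcL. In these barcodes the β3 chain was thus counted in all 3 libraries. The α3 chain was counted in LApc and LApcL only, at a lower level than the β3 chain. The log2 ratio of LApc to WT was 2.71 (2.53 to 2.89) for Lamb3.

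Lama5, Lamb1, Lamb2 and Lamc1 encode the chains of the laminins with the α5 chain, which are widespread under mature epithelium. Lama5 had 21 UMIs in WT (0.429 CPM, 0.266 to 0.657), 4164 in LApc (45.8 CPM, 44.4 to 47.2) and 4091 in LApcL (50.8 CPM, 49.3 to 52.4). Its log2 ratio of LApc to WT was 6.74 (6.12 to 7.43). Lamb1 rose from 0.0818 CPM in WT to 10.6 CPM in LApc, Lamb2 from 0.961 to 17.3 CPM and Lamc1 from 4.56 to 18.9 CPM. In WT the γ1 chain was therefore counted at a higher level than any of its α5, β1 or β2 partners. Lama4, which encodes the α4 chain of vascular laminins, had 2, 85 and 51 UMIs and stayed under 1 CPM in own deep barcodes of all 3 libraries.

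The share of barcodes with a UMI gave the same order. After each own deep barcode was thinned to 10000 UMIs, Lama5 was found in 0.248% of WT barcodes (0.0512 to 0.724, Clopper-Pearson), 35.6% of LApc barcodes (33.6 to 37.7) and 40.4% of LApcL barcodes (38.2 to 42.6). Without thinning the shares were 1.66%, 74.9% and 76.1%. For Col4a1 the thinned shares were 0.0828%, 10.3% and 7.09%, and for Lamb3 they were 5.30%, 25.9% and 31.5%. The transcripts were not confined to a few barcodes, since the 1% of LApc barcodes with the most Lama5 UMIs held 6.51% of them, against 17.0% for Col4a1.

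Among the collagens that lie outside the basement membrane network, Col16a1 and Col14a1 showed the widest differences. Both belong to the fibril-associated collagens, which sit on the surface of collagen fibrils. Col16a1 had 4 UMIs in WT own deep barcodes (0.0818 CPM), 8496 in LApc (93.5 CPM) and 3679 in LApcL (45.7 CPM), the highest level of any collagen gene in LApc. Its log2 ratio of LApc to WT was 10.16 (8.80 to 12.03). Col14a1 had 1 UMI in WT (0.0205 CPM), 1509 in LApc (16.6 CPM) and 8340 in LApcL (104 CPM), and the ratio of LApc to WT, 9.67 (7.19 to 14.97) on the log2 scale, rests on that single WT count. Col23a1, a transmembrane collagen, had 3, 383 and 127 UMIs (0.0614, 4.22 and 1.58 CPM). The fibril-forming chains Col1a1 and Col3a1 had at most 9 UMIs per library, and 7 fibroblast markers summed to 0.137 to 1.08 CPM. Their relative Col1a2 had 81 UMIs in WT (1.66 CPM), 5 in LApc and 11 in LApcL, and 79 of the WT UMIs came from barcodes with the enterocyte markers. Col1a2 was under the minimum for a call, and was called lower in LApc when 10 UMIs were the minimum.

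Of the integrin subunits compared, Itgb1, Itgb4 and Itgav were called higher in LApc than in WT. Itgb1, the β1 subunit that pairs with most α subunits, stood at 91.8 CPM in WT, 206 CPM in LApc and 253 CPM in LApcL. Its laminin-binding partner Itga6 stood at 90.4, 156 and 233 CPM. These were the 2 most abundant members in WT, where a UMI of Itgb1 was found in 58.0% and one of Itga6 in 55.0% of barcodes after thinning. Itgb4, the β4 subunit of the hemidesmosome, stood at 11.8, 47.2 and 56.5 CPM, a log2 ratio of LApc to WT of 2.00 (1.88 to 2.13). Itga6 UMIs outnumbered Itgb4 UMIs 7.67 to 1 in WT (7.03 to 8.38), 3.30 to 1 in LApc (3.19 to 3.42) and 4.12 to 1 in LApcL (3.99 to 4.26). Itgav, the αv subunit, stood at 9.49, 22.3 and 19.3 CPM.

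Several integrin genes differed by less than 2-fold between LApc and WT. Itga3, another laminin-binding subunit, stood at 11.2 CPM in WT and 17.0 CPM in LApc, and Itga2, a collagen-binding subunit, at 8.59 and 9.13 CPM. The direction of Itga2 depended on the enterocyte barcodes, since it stood at 6.12 CPM in WT barcodes with the enterocyte markers and at 15.8 CPM in the other WT barcodes, and its log2 ratio was -0.79 when the former were left out. Itgb6, the β6 subunit of the epithelial integrin αvβ6, stood at 17.1 and 19.3 CPM. Itgb5 stood at 4.36 and 4.52 CPM. Itga1, the α1 subunit of the collagen IV receptor α1β1, was the only member called lower. It had 741 UMIs in WT (15.2 CPM), 53 in LApc (0.583 CPM) and 115 in LApcL (1.43 CPM), 26.0-fold lower in LApc than in WT. Itga1 stood at 14.5 CPM in WT barcodes with the enterocyte markers and at 17.2 CPM in the other WT barcodes. The integrin genes Itga5, Itga9, Itgb7 and Itgb8 were at or below 1.23 CPM in all own deep groups.

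Over all members, 24 of 86 had a mean of at least 2 CPM over the LApc and WT own deep barcodes and were compared. A member was called where its ratio was at least 2 or at most 0.5 and the interval left out 1. By this rule 17 were called higher in LApc (6 of 6 collagens, 7 of 7 laminins, 3 of 9 integrin subunits and Itgb3bp) and 1 lower, against 27.1% of 11729 genes called higher and 10.7% called lower. Members that passed the minimum only through their LApc level had to differ, which holds for the 6 collagens and for Lama3, Lama5, Lamb1 and Lamb2, all under 2 CPM in WT, and for Itga1 through its WT level. The median log2 ratio was 2.36 over the 24 members and 0.52 over all genes compared. With size factors from the median of ratios in place of CPM the median over all genes fell to 0.053, and the share of called genes that were higher went from 71.7% to 48.7%. Itgb1, Itgav and Itgb3bp were then not called, with log2 ratios of 0.71, 0.78 and 0.93, and Col23a1 was under the minimum. Itgav (log2 ratio 0.99) and Itgb3bp were also not called when barcodes were held to at most 10% of mitochondrial UMIs, the median share being 10.5% in WT and 5.64% in LApc own deep barcodes. Itgb1, Itgav and Itgb3bp were again not called when the WT barcodes with enterocyte markers were left out, the remaining 344 WT barcodes having 119 CPM of Itgb1 and 11.9 CPM of Itgav. The other 14 members called higher were called in this setting too, beside 18.2% of all genes, but the ratios of several moved by over 1.5 times. The log2 ratio was higher for Col18a1, at 7.31 in place of 4.66, since 47 of its 49 WT UMIs came from barcodes with the enterocyte markers. It was lower for Lama5 (5.70), Lamb1 (6.05), Lamb2 (3.05), Lamb3 (1.73) and Lamc1 (1.38), the 344 barcodes having 0.882, 0.160, 2.08, 11.1 and 7.29 CPM of these genes. Col14a1 (7.70) and Col16a1 (9.19) were also lower, on 1 and 2 UMIs in those barcodes, and Lama3 and Col23a1, with 0 UMIs there, had bounds of 4.91 and 4.13.

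**Figure D2:**
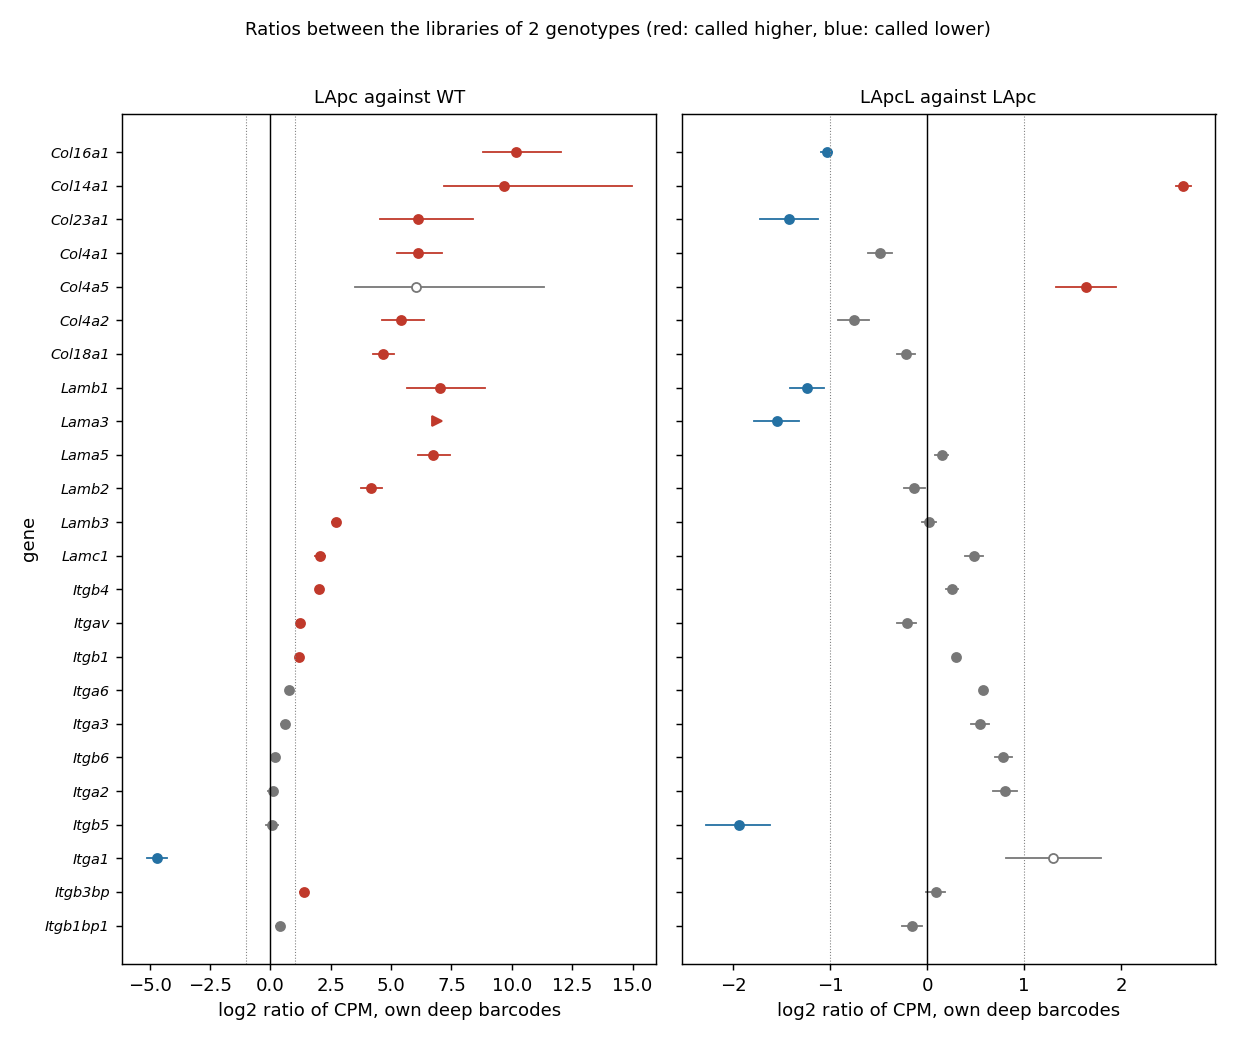
Log2 ratios of CPM between libraries for members with a mean of at least 2 CPM in either comparison, with 95% counting intervals (lines), the 2-fold limits (dotted) and open points for genes under the minimum in that panel. The triangle marks Lama3, a lower bound since WT had 0 UMIs. Collagen and laminin genes lie right of the limit for LApc against WT, Itga1 lies left of it, and Col14a1 and Col4a5 stand out to the right for LApcL against LApc. The 6 collagens compared between LApc and WT, and Lama3, Lama5, Lamb1 and Lamb2, passed the minimum only through LApc and had to differ.

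Endothelial markers also differed between the own deep barcodes. At least 1 UMI of Pecam1 or Cdh5 was found in 3.73% of WT, 11.7% of LApc and 3.21% of LApcL barcodes. Of the 6 endothelial markers, 4 were high enough to compare and all 4 were called higher in LApc than in WT, as were Flt1 (0.102 and 11.7 CPM) and Sox17 (0 and 25.0 CPM) of the 7 blood endothelial markers. Of these called markers only Egfl7 reached 2 CPM in WT, at 3.58 CPM. The others passed the minimum only through LApc and so had to differ. Tie1, Kdr, Emcn, Plvap, Vwf and Esm1 were under the minimum, at 0 to 1.44 CPM in LApc and 0 to 0.368 CPM in WT. Pecam1 itself stood at 1.002 CPM in WT, 1.60 CPM in LApc and 1.06 CPM in LApcL, against 1050 to 1076 CPM in shared barcodes. Without the Pecam1 or Cdh5 barcodes, Col4a1 stood at 15.2 CPM in LApc and 0.193 CPM in WT, and Lama5 at 44.9 and 0.451 CPM. All 17 members except Col23a1, which fell under the minimum, were still called higher, beside 27.2% of all genes in this setting.

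Genes that work with the matrix genes were taken from 5 lists. Of their 49 genes that could be compared between LApc and WT, 24 (49.0%) were called higher and 1 (2.04%) lower, beside the 27.1% and 10.7% of all genes. Of the 24, 8 were under 2 CPM in WT and so passed the minimum through LApc: Fn1, Npnt, Icam1, Plod2, P3h4, Fermt2, Loxl2 and Bmp1. Of the basement membrane partners, 6 of 16 could be compared, and 5 were called higher. Npnt, the nephronectin ligand of α8β1, stood at 0.920 and 35.4 CPM, Fn1, fibronectin, at 0.0818 and 18.2 CPM, Agrn, agrin, at 9.57 and 46.5 CPM, and Hspg2, perlecan, at 2.95 and 14.2 CPM. Smoc2, a matricellular protein gene, stood at 66.8 and 233 CPM. The nidogens were low in both, Nid1 at 0.368 and 0.264 CPM and Nid2 at 2.27 and 0.803 CPM.

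Of the genes for making collagen, 13 of 26 could be compared and 8 were called higher in LApc. They included the prolyl hydroxylases P4ha1 (21.3 and 52.7 CPM) and P4ha2 (10.3 and 22.6 CPM), the lysyl hydroxylase Plod2 (0.511 and 5.62 CPM) and the procollagen protease Bmp1 (1.12 and 5.65 CPM). Serpinh1, the collagen chaperone HSP47, had 0 UMIs in WT and 2.65 CPM in LApc, and so was under the minimum. Of the integrin adaptors, 16 of 22 could be compared and 6 (37.5%) were called higher. Fermt2, kindlin-2, an activator of integrins, stood at 0.327 and 44.5 CPM, while its epithelial relative Fermt1 stood at 75.2 and 92.1 CPM.

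Of 11 hemidesmosome components and other matrix receptors, 9 could be compared, 4 (44.4%) were called higher and Dst was called lower (38.6 and 12.7 CPM). Bcam, a receptor for laminin α5, stood at 5.71 CPM in WT and 95.2 CPM in LApc, the collagen receptor Ddr1 at 10.9 and 42.7 CPM and the hyaluronan receptor Cd44 at 6.54 and 50.4 CPM. Of 10 cell-surface integrin ligands, 5 could be compared, and 1 (20%), Icam1, was called higher (0.941 and 9.41 CPM). The median log2 ratios of the 5 lists, in the order given, were 2.28, 1.14, 0.72, 0.73 and 0.40, beside 0.52 over all genes.

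The comparison of LApcL with LApc addressed the Lef1 genotype on the Apc-targeted background, with Lef1 itself at 72.0 CPM in LApc and 47.8 CPM in LApcL. Of 24 members compared, 2 were called higher and 5 lower in LApcL, against 2.27% of 11583 genes called higher and 4.83% called lower. Of these 7 calls, Col4a5 passed the minimum only through LApcL, and Col23a1 and Itgb5 only through LApc, so that these 3 had to differ. The median log2 ratio was -0.01 over the members and 0.04 over all genes. By family, 2 of 7 collagens were called higher and 2 lower, 2 of 7 laminins lower and 1 of 8 integrin subunits lower, with median log2 ratios of -0.49, -0.04 and 0.42. Among the matrix chains that were not called, the log2 ratios were 0.15 (0.09 to 0.21) for Lama5, 0.02 (-0.05 to 0.09) for Lamb3, -0.13 (-0.24 to -0.03) for Lamb2, 0.48 (0.39 to 0.57) for Lamc1 and -0.22 (-0.31 to -0.13) for Col18a1.

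Among the 24 members compared, Col14a1 had the largest ratio. It stood at 16.6 CPM in LApc (15.8 to 17.5) and at 104 CPM in LApcL (101 to 106), a 6.24-fold higher level in LApcL and a log2 ratio of 2.64 (2.56 to 2.72). After thinning to 10000 UMIs it was found in 11.5% of LApc barcodes (10.2 to 12.9) and 50.5% of LApcL barcodes (48.3 to 52.8). In LApcL the 1% of barcodes with the most Col14a1 held 7.21% of its UMIs, against 19.0% in LApc. Col4a5 was 3.10-fold higher in LApcL (1.32 and 4.10 CPM, log2 ratio 1.63, 1.33 to 1.95), and found in 1.90% and 4.66% of thinned barcodes. Col4a5 is X-linked, and the part of the difference in Xist between these libraries in this result was not tested.

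The 5 members called lower in LApcL were Itgb5, Lama3, Col23a1, Lamb1 and Col16a1. Itgb5, the β5 subunit that pairs with αv, stood at 4.52 CPM in LApc and 1.18 CPM in LApcL (log2 ratio -1.94, -2.28 to -1.61). Lama3 stood at 7.24 and 2.47 CPM (-1.55, -1.79 to -1.32), although its partner Lamb3 differed by less than 1.1-fold. Lamb1 stood at 10.6 and 4.51 CPM (-1.23, -1.41 to -1.06). Col16a1 was 2.05-fold lower, its log2 ratio of -1.03 (-1.09 to -0.98) lying at the limit of the call. Col4a1 (-0.49, -0.61 to -0.36) and Col4a2 (-0.76, -0.91 to -0.60) were lower by less than 2-fold.

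Several integrin subunits had higher values in LApcL that did not reach 2-fold. Itga6 stood at 156 CPM in LApc against 233 CPM in LApcL (0.58, 0.55 to 0.61), Itga2 at 9.13 against 15.9 CPM (0.80, 0.67 to 0.93), Itga3 at 17.0 against 24.8 CPM (0.55, 0.45 to 0.64) and Itgb6 at 19.3 against 33.3 CPM (0.78, 0.70 to 0.87). Itgav stood at 22.3 against 19.3 CPM. Against WT, LApcL stood 2.58-fold higher for Itga6 and 2.20-fold higher for Itga3, and 10.6-fold lower for Itga1.

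**Figure D3:**
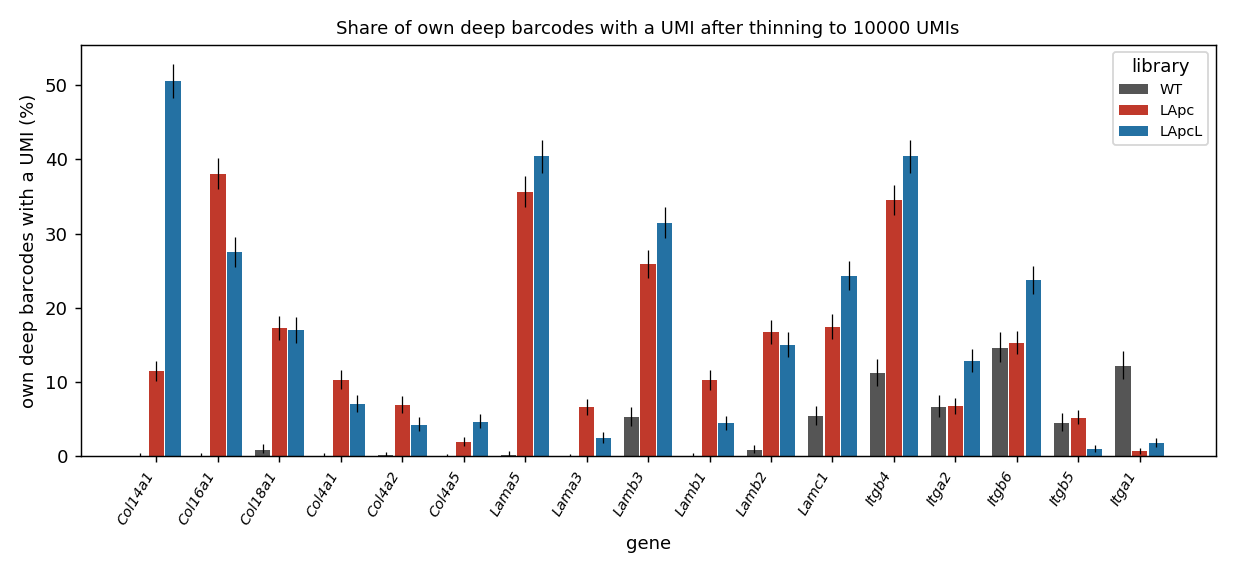
Share of own deep barcodes with at least 1 UMI of a gene (percent) after each barcode was thinned to 10000 UMIs, with Clopper-Pearson 95% intervals (lines), for WT, LApc and LApcL. Col14a1 was found in 50.5% of LApcL and 11.5% of LApc barcodes, and Itga1 in 12.2% of WT barcodes and under 2% of the others.

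A group of 152 LApc barcodes (7.03%) with at least 10 UMIs of Npy, a neuropeptide gene, had no counterpart in WT or LApcL. These barcodes held 34.6 CPM of Itgav against 21.3 CPM in the other LApc barcodes. For Itgb5 the levels were 11.2 against 3.99996 CPM, and for Col14a1 3.18 against 17.7 CPM. Without the Npy barcodes Col14a1 was still higher in LApcL (log2 ratio 2.55) and Itgb5 and Lama3 still lower (-1.76 and -1.46). Col9a2, a cartilage collagen chain named here after its values had been seen, was counted in LApc at 3.19 CPM but had 0 UMIs in WT and 4 in LApcL, and stood at 13.3 CPM in the Npy barcodes and 2.40 CPM in the others. Endothelial markers moved in this comparison as well: Cdh5 stood at 4.77 CPM in LApc against 0.161 CPM in LApcL, and Sox17 at 25.0 and 3.40 CPM. The 7 calls were made also without the Pecam1 or Cdh5 barcodes.

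Of 50 genes of the 5 partner lists compared between LApcL and LApc, 3 (6%) were called higher and 2 (4%) lower, beside 2.27% and 4.83% of all genes. Frem2 of the basement membrane partners, which passed the minimum only through LApc, was called lower (3.02 and 1.08 CPM), as was Fermt2 of the adaptors (44.5 and 11.8 CPM). Plod2 (5.62 and 12.4 CPM) and Loxl2, a lysyl oxidase that cross-links collagen (3.38 and 7.74 CPM), were called higher, as was Icam1 (9.41 and 19.3 CPM). No hemidesmosome component or other receptor of the list was called among 9 compared.

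The barcodes shared by all 3 libraries were divided by the lymphatic endothelial genes Prox1 and Mmrn1 into those with at least 1 UMI of either (positive) and those with none (zero), by each library's own counts. There were 1113, 1031 and 1031 positive and 2082, 2164 and 2164 zero barcodes in WT, LApc and LApcL. Of the 3195 barcodes, 840 were positive in all 3 libraries and 1922 in none. Positive barcodes were deeper, with medians of 2826, 1968 and 2154 UMIs against 1840, 1259 and 1351, and a shallow barcode can be at 0 by chance of capture. The other lymphatic markers Lyve1, Flt4, Reln, Pdpn and Fgl2 were higher in positive barcodes, while Ccl21a was lower (222 to 349 CPM against 2894 to 3033 CPM). Of the 7 blood endothelial markers 6 were lower, and all 4 high endothelial markers, among them Glycam1, were lower. The fibroblast marker Dcn was higher in positive barcodes (86.3 to 92.6 CPM against 12.5 to 12.9 CPM), and its part in the results was not tested.

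Col4a1, Col4a2, Lamc1 and Lama4 were counted at higher levels in the shared, endothelial barcodes than in own deep barcodes of each library. Over all shared barcodes Col4a1 stood at 652 to 670 CPM, Col4a2 at 417 to 429 CPM, Lamc1 at 94.8 to 103 CPM and Lama4 at 119 to 128 CPM. Of 40 members compared, 25 were called lower in own deep than in shared barcodes in all 3 libraries and 2 were called higher, against 20.6% and 13.2% of 11838 genes. Of the 25, 15 were under 2 CPM in own deep barcodes of every library, so that they passed the minimum through the shared barcodes and had to differ. When the shared barcode with the highest UMI count of each gene was left out, 21 of the 25 were called and Col1a1, Col1a2, Col3a1 and Col6a4 fell under the minimum, although that barcode held at most 8% of the Col6a4 UMIs. The 2 were Lamb3, at 5.64 to 37.4 CPM in own deep and 1.83 to 2.34 CPM in shared barcodes, and Itgb6, at 17.1 to 33.3 and 0.332 to 0.367 CPM, which passed the minimum only through own deep barcodes. Among the 15 were Col5a1 (0.0205 to 0.0373 against 5.498 to 6.66 CPM) and Itga5 (0.245 to 0.979 against 56.8 to 58.1 CPM). Itgb1 (91.8 to 253 CPM against the 305 to 425 CPM of the shared classes) and Itga6 were abundant in both kinds of barcode.

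Within the shared barcodes, members were called in both directions. Of 42 compared, 13 were called higher and 13 lower in positive barcodes in all 3 libraries, against 9.41% and 5.22% of 11543 genes. Lamb3 and Col23a1 of the former and Col1a1, Col1a2 and Col3a1 of the latter were under 2 CPM in the lower class of every library, passed the minimum only through the other class and so had to differ. Without the barcode with the highest UMI count of the member, 12 of the 13 higher and 8 of the 13 lower were called, as Lamb3, Col1a1, Col1a2, Col3a1, Col6a1 and Col6a2 were not. Because the same barcodes recur, agreement between libraries shows counting precision and not replication. Collagen IV was lower in positive barcodes. Col4a1 stood at 278, 287 and 290 CPM in positive barcodes of WT, LApc and LApcL and at 925, 919 and 914 CPM in zero barcodes, log2 ratios of -1.74, -1.68 and -1.66. Col4a2 stood at 162, 154 and 171 CPM against 603, 607 and 594 CPM. After thinning to 1000 UMIs, which left out 77 to 163 positive and 283 to 761 zero barcodes per library, Col4a1 was found in 20.8% to 21.7% of positive and 48.8% to 50.5% of zero barcodes.

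Col15a1 had the same direction, at 64.8, 51.1 and 72.9 CPM in positive and 377, 384 and 354 CPM in zero barcodes. Col13a1, a transmembrane collagen, stood at 7.84 to 9.58 CPM against 79.6 to 86.5 CPM. Of the laminins, Lama5 was lower in positive barcodes (32.9 to 35.6 against 75.2 to 81.4 CPM) and so was Lama3 (1.67 to 2.61 against 22.1 to 23.5 CPM). The fibrillar chains Col1a1, Col1a2 and Col3a1 were at or below 0.871 CPM in positive barcodes and at 8.22 to 16.0 CPM in zero barcodes, where 4 to 13 barcodes per library held any UMI of each. A single barcode, the same in all 3 libraries for a given gene, held 84.6% to 87.5% of the Col1a1 UMIs, 50% to 70.2% of Col1a2 and 70.7% to 80.3% of Col3a1 in the zero class. Without it the levels were 1.11 to 1.78, 2.96 to 4.46 and 2.68 to 4.70 CPM, and none of the 3 genes was called. Of 7 pericyte and smooth muscle markers, 5 could be compared and 4 were called lower in positive barcodes (Pdgfrb, Acta2, Notch3 and Des), Acta2 standing at 0.416 to 1.45 against 8.29 to 13.7 CPM. Rgs5, the most abundant of the 7, had higher values in positive barcodes (40.0 to 47.9 against 30.4 to 31.2 CPM) and was not called, and the list summed to 45.4 to 52.6 against 65.2 to 73.4 CPM. The part of these markers in the results was not tested. Itga6 stood at 84.0 to 87.9 CPM against 205 to 216 CPM. The other members called lower were Col8a1 (1.74 to 2.28 against 7.80 to 9.51 CPM), Col6a1 (0 to 2.03 against 5.48 to 6.83 CPM) and Col6a2 (0.416 to 2.32 against 4.16 to 5.48 CPM). Lama5, Col6a1 and Col6a2 were not called when the class was taken from the other 2 libraries.

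Other members were higher in positive barcodes. Itga9, whose α9β1 integrin is known from lymphatic valves, stood at 289, 292 and 283 CPM in positive and at 20.9, 25.8 and 19.9 CPM in zero barcodes of WT, LApc and LApcL, log2 ratios of 3.79, 3.50 and 3.83. It was found in 20.8% to 22.7% of positive and 1.85% to 2.17% of zero barcodes after thinning. Itga2b, best known as the platelet αIIb subunit, stood at 315, 324 and 322 CPM against 25.9, 36.5 and 29.0 CPM, and its partner Itgb3 at 31.7, 33.8 and 35.0 CPM against 10.3, 10.7 and 11.9 CPM. Col12a1, a fibril-associated collagen, stood at 148, 151 and 145 CPM against 9.70, 12.8 and 13.5 CPM. Lama4 stood at 204, 193 and 202 CPM against 72.1, 82.3 and 64.9 CPM.

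Itgav (147 to 158 against 54.6 to 60.3 CPM), Col18a1 (62.5 to 79.1 against 25.7 to 30.4 CPM) and Col14a1 (29.6 to 37.4 against 3.58 to 6.08 CPM) were also higher in positive barcodes. Col4a5 stood at 26.7 to 31.5 CPM against 1.69 to 3.27 CPM, opposite in direction to Col4a1 and Col4a2, and Col4a6 had 4 to 7 UMIs in positive and 0 in zero barcodes. The remaining members called higher were Col16a1, Col23a1, Col27a1 and Lamb3. The β1 subunit differed little, Itgb1 standing at 401 to 425 CPM against 305 to 337 CPM, as did Itga1 (308 to 348 against 360 to 399 CPM), Lamc1 (92.9 to 103 against 96.2 to 104 CPM) and Itga5 (52.0 to 58.4 against 57.9 to 60.3 CPM).

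**Figure D4:**
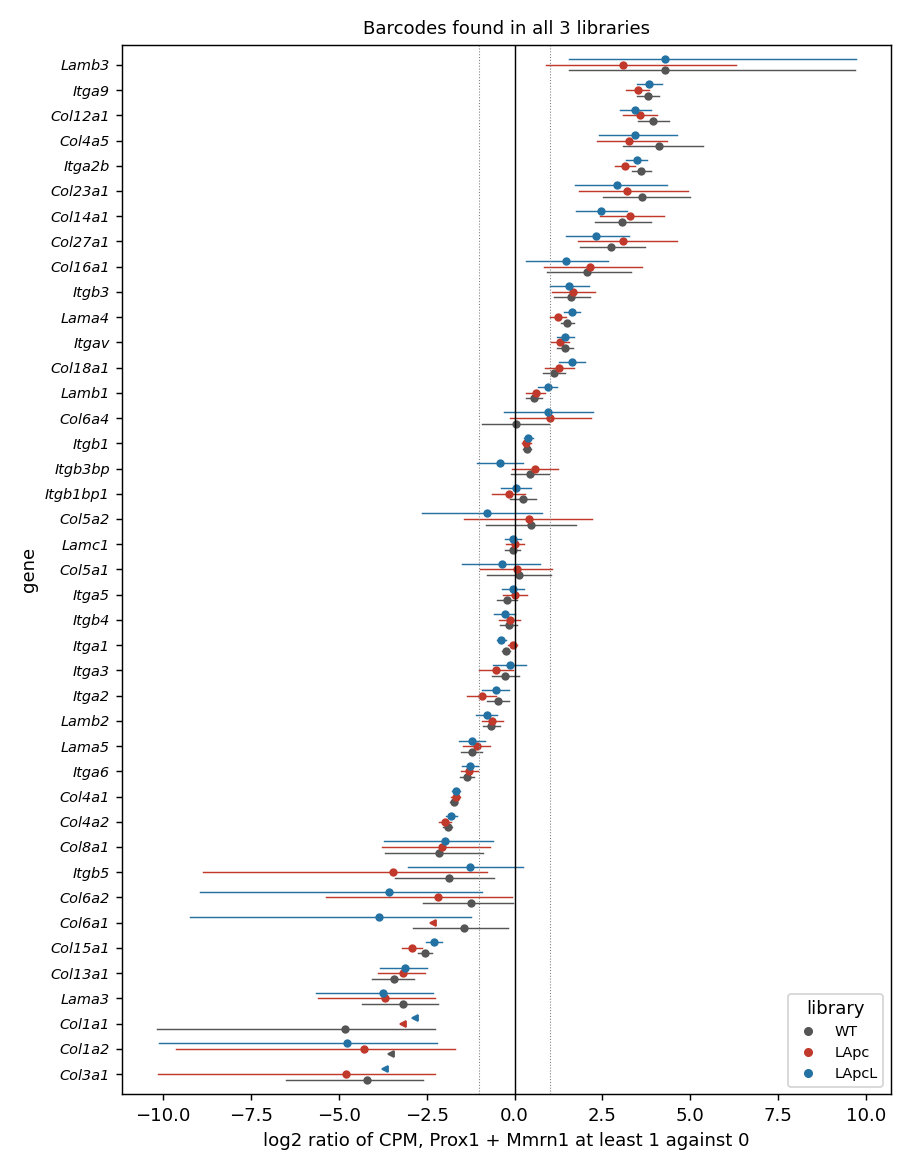
Log2 ratio of CPM between shared barcodes with at least 1 UMI of Prox1 or Mmrn1 and those with 0, for the members compared, with 1 point per library and 95% counting intervals (lines). Triangles are bounds where a class had 0 UMIs, and dotted lines mark 2-fold. Itga9, Itga2b and Col12a1 lie right of the limit and Col15a1, Col13a1 and collagen IV left of it in each library, the same barcodes recurring in all 3.

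Partner genes were called in both directions between the classes. Tnc, tenascin-C, a ligand of α9β1, stood at 518 to 558 CPM in positive and 24.9 to 29.1 CPM in zero barcodes, and Fn1 at 246 to 251 against 22.1 to 28.8 CPM. Vcam1, another ligand of α9β1, stood at 434 to 471 against 136 to 152 CPM. Nid1, the nidogen that links laminin to collagen IV, stood at 256 to 280 against 82.5 to 104 CPM. Hspg2 was lower in positive barcodes, at 189 to 194 against 411 to 426 CPM, as was Icam1, at 342 to 364 against 818 to 825 CPM. Of the 70 list genes compared, 16 (22.9%) were called higher and 9 (12.9%) lower, beside 9.41% and 5.22% of all genes. Among the 16, Loxl3 and Smoc1 passed the minimum only through the positive barcodes. By list, 4 of 11 basement membrane partners were called higher and 1 lower, 4 and 2 of 21 collagen-making genes, 3 and 2 of 19 adaptors, 3 and 1 of 10 other receptors, and 2 and 3 of 9 cell-surface ligands.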

How the data were processed

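The authors made droplet-based 10x libraries, 1 per genotype, and deposited whole-number UMI counts per gene and barcode with no normalization, on the mouse build mm10. The file headers name Cell Ranger 6.0.1, and the submitters' processing notes name Cell Ranger 2.1.1. The deposited counts held 11411, 10706 and 12068 barcodes. From these counts, UMIs were summed per barcode group and scaled to CPM (Python 3.11.15, scipy 1.17.1). Own deep barcodes had at least 10000 UMIs and at most 20% from 13 mitochondrial genes, and shared barcodes had no mitochondrial limit. Ratios have exact conditional binomial intervals, levels Poisson and shares Clopper-Pearson intervals at 95%, for counting error only. A count of 0 was set at a floor of 3 counts per group. Genes with a mean under 2 CPM were not called. Shared comparisons required the same call in all 3 libraries. Intervals were tested on simulated Poisson counts of whole groups. These hold no spread between barcodes, so the intervals were not tested for such spread. Doublets were not removed: Scrublet in scanpy 1.11.5 marked 0, 2 and 2 barcodes by its own threshold and so did not work, and removal of the top scores at 0.8% per 1000 barcodes was an alternative. Leaving out the barcode with the highest UMI count of a member was added after seeing the data, for called members only. Genes named were a fixed set of basement membrane, laminin and integrin genes plus up to 8 called members per direction and comparison. Members and lists were chosen with earlier results of these data known. Gene models are GENCODE M21, promoter windows RefSeq. A gene that met the naming rule is not reported here and is left out of the figures.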

Additional observations from a re-analysis of the deposited data

Results flagged for a closer look

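Col4a1 was also counted in barcodes that no comparison above used, above the limit that a count of 0 allows. In barcodes found in exactly 2 libraries it stood at 128 CPM in WT (116 barcodes, limit 9.17 CPM), 20.2 CPM in LApc (50 barcodes, limit 5.04 CPM) and 40.6 CPM in LApcL (104 barcodes, limit 5.07 CPM). Pecam1 stood at 190, 3.36 and 67.6 CPM in the same barcodes. In barcodes of 1 library with under 10000 UMIs and at most 20% mitochondrial UMIs, Col4a1 stood at 11.5 CPM in WT, 9.07 CPM in LApc and 4.17 CPM in LApcL, with limits of 0.513, 0.604 and 0.338 CPM. Pecam1 stood at 24.6, 1.01 and 0.901 CPM there. In WT the level of Col4a1 was thus 0.225 CPM in own deep barcodes and 11.5 CPM in the shallower ones.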

How the results depend on the processing

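No paired analysis was possible because each genotype had 1 library, and no replicate could be left out. The alternatives changed the minimum level, scaling, depth and mitochondrial limits, doublet removal, class rule and barcode subgroups. The minimum level changed the counts most, since it sets which members are compared. With at least 10 UMIs in place of 2 CPM, 28 of 55 members were called higher and 5 lower for LApc against WT (29.3% and 14.5% of all genes), and 7 and 11 of 55 for LApcL against LApc (3.89% and 10.6%). With at least 20 CPM the counts were 5 and 0 of 6 for LApc against WT (20.2% and 9.79% of all genes), 1 and 1 of 14 for LApcL against LApc (1.04% and 2.26%), 7 and 6 of 23 for positive against zero barcodes (8.48% and 5.46%), and 0 and 15 of 22 for own deep against shared barcodes (10.8% and 20.9%). Chosen after seeing the data, leaving out for each called member the barcode of the higher group with its highest UMI count gave 8 members called lower in positive than in zero barcodes. This step was run on called members only, so no share of all genes stands beside that count. The other 71 recomputed counts were within 1.5 times those reported. Of the recomputed values of single genes, 225 moved by more than their counting interval and 1641 did not. No called value was called in the other direction. Without the barcode with its highest UMI count, Col1a1 had a log2 ratio of 0.175 for positive against zero barcodes in LApcL and was not called. Taking the class from the other 2 libraries left Lama5, Col6a1 and Col6a2 not called, and Itgb5 was among those then called (lower). At 10000 UMIs per barcode, Col4a5 at 1.32 CPM was found in 1.90% of LApc barcodes, so shares of genes near this level rest on few barcodes.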
